A study of Mus musculus with 2 samples.

Results

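The genes of 6 chemoattractant receptors were examined on 2 one-colour arrays of mouse leukaemia cells: Fpr1 and Fpr2, the formyl peptide receptors, C3ar1 and C5ar1, the receptors of the complement fragments C3a and C5a, Ltb4r1, the leukotriene B4 receptor, and Ptafr, the receptor of platelet-activating factor. They were taken by gene name from the array files and are 6 of 27337 genes, read by 9 of 41174 probes. One array held Jam3-null cells and 1 held wild type (WT) cells, each labelled as bone marrow cells of 3 female mice. The cells were leukemia-initiating cells, which can start the disease anew in another mouse. Both groups were acute myeloid leukaemias that carry the MLL-AF9 fusion gene with a YFP reporter, and both were sorted for the surface proteins Mac-1 and c-Kit. Jam3, which the Jam3-null group lacks per its label, encodes a cell surface adhesion protein. How Jam3 was removed, the strain and age of the mice and how the 3 mice of a group were combined are not stated in the labels.

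The receptors are G protein-coupled receptors with which neutrophils and monocytes find infected or damaged tissue. Formyl peptide receptors bind peptides that bacteria and mitochondria make, the anaphylatoxin receptors bind fragments cut from complement proteins, and Ltb4r1 and Ptafr bind lipids made from membrane phospholipids. They signal mainly through inhibitory G proteins to phospholipase C and phosphoinositide 3-kinase gamma, and from there to actin. In the bone marrow, Fpr1 and Fpr2 are known as genes of late granulocyte maturation.

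Of the 6 genes, 3 were well above background on both arrays, and all 3 were higher on the Jam3-null array. Fpr2 was 34.2-fold higher, Fpr1 29.0-fold higher and Ltb4r1 5.07-fold higher. Ptafr was measured on the Jam3-null array only, just above the detection limit, and C5ar1 and C3ar1 were not well above background on either array. With 1 array per genotype no difference has a replicate check and no p-value is given. All errors below are measurement errors of the scanner software and leave out the spread between mice and between leukaemias. Differences are on the log2 scale, Jam3-null minus WT, between signals scaled to the 75th percentile of their array. Positive ones are therefore brighter in Jam3-null cells.

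Probe sequences are shown for the receptors whose signals are compared or contrasted below, since each value is the brightness of 1 such 60-base oligonucleotide. Positions are on mm9, as in the array files, and letters run 5′ to 3′. The Fpr1 probe lies at chr17:18013609-18013668 on the minus strand. The Fpr2 probes lie at chr17:18030540-18030599 (probe 1) and chr17:18029929-18029988 (probe 2) on the plus strand, and the C5ar1 probe at chr7:16833871-16833930 on the minus strand.
Fpr1: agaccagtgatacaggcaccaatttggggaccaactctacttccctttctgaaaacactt
Fpr2 probe 1: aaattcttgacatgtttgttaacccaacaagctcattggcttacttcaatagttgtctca
Fpr2 probe 2: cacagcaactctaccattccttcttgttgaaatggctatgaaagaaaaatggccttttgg
C5ar1: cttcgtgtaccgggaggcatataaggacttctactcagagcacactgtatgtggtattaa
None of these 4 probes shares a run of 20 bases with another probe of the array (0 probes for each). The files list accessions of both Fpr2 and its close relative Fpr3 for Fpr2 probe 2, so that probe may read either gene, whereas probe 1 is listed for Fpr2 and the Fpr1 probe for Fpr1. The Ltb4r1 probe lies at chr14:56387175-56387234 on the plus strand. Exon annotation of these positions was not used here.

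Fpr2 binds a wide range of ligands, among them annexin A1, serum amyloid A and cathelicidin. The processed signal of its probe 1 was 3610.5 ± 361 in Jam3-null cells, against 113 ± 11.9 in WT cells (± error of the scanner software's error model). The log2 difference was 5.09 ± 0.21 (error-model SD), and after normexp background correction it was 4.40, or 21.0-fold. Probe 2 gave 222 ± 22.9 on the Jam3-null array, against 3.44 on the WT array, where it was not well above background and holds a surrogate value. It therefore gave only a bound, at least 15.4-fold higher (at least 4.44-fold after normexp correction). Both probes were brighter on the Jam3-null array, and the bound of probe 2 lay below the fold of probe 1.

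Fpr1, the high-affinity receptor of bacterial formyl peptides, had processed signals of 946 ± 94.8 in Jam3-null cells and 34.9 ± 5.25 in WT cells. The log2 difference was 4.86 ± 0.26. On the WT array Fpr1 stood close to the detection limit, and normexp correction, which adds 50 to every signal, gave 3.36 or 10.3-fold. Its unprocessed mean signal in Jam3-null cells was 909.7 over a local background of 52.0, against 77.3 over 46.0 in WT cells. The difference between the log2 differences of Fpr1 and Fpr2 was -0.24, with a 95% interval of -0.89 to 0.42 from the error model. In the main setting their order is therefore within measurement error. The interval leaves out the choice of background correction, and after normexp correction Fpr1 (3.36) lay further below Fpr2 (4.40).

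Ltb4r1, which encodes the high-affinity leukotriene B4 receptor BLT1, was bright on both arrays, with 38253 ± 3825 on the Jam3-null array, against 8058 ± 806 on the WT array. Its log2 difference was 2.34 ± 0.20. Over the alternative processing steps it ranged from 2.25 to 2.55, and background correction had little effect on so bright a probe (2.26 after normexp). Its difference was smaller than that of Fpr1 by 2.51 (interval 1.86 to 3.16) and than that of Fpr2 by 2.75 (interval 2.18 to 3.32), both beyond measurement error. These intervals hold for the main setting and leave out the choice of background correction. After normexp correction Fpr1 was at 3.36 and Fpr2 at 4.40, so both gaps were smaller. A probe's brightness also depends on its sequence, so the signals of different receptors are not set against each other.

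Ptafr binds platelet-activating factor, a phospholipid that acts on platelets and leukocytes. One of its probes, at chr4:132136231-132136290 on the plus strand, had 28.8 ± 5.98 on the Jam3-null array, where it was well above background, against 13.1 ± 3.40 on the WT array, where it was not. Set against the dimmest probe that the WT array still measured, its signal was higher by at least 1.998-fold, or by at least 1.27-fold after normexp correction. After scaling, that dimmest WT probe was at -5.53 on the log2 scale, while the dimmest one measured in Jam3-null cells was at -4.69. Ptafr, at -4.53, lay just above the latter, so most of its bound came from the unequal detection limits. This bound passes 2-fold under some scalings and not under others. The other Ptafr probe, which the files leave unmapped, had 12.7 in Jam3-null cells and 10.8 in WT cells and was well above background on neither array.

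C5ar1 and C3ar1 gave no fold. The C5ar1 probe had 16.8 in Jam3-null cells and a surrogate value of 3.32 in WT cells. The C3ar1 probes, at chr6:122798222-122798281 and chr6:122798696-122798755 on the minus strand, held surrogate values of 7.50 and 6.57 in Jam3-null cells and of 4.64 and 4.06 in WT cells. At these signals a difference could not be detected, and the absence of a measured level does not show that the transcripts are absent. Of all genes, 36.7% were likewise not well above background on either array.

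**Figure D1:**
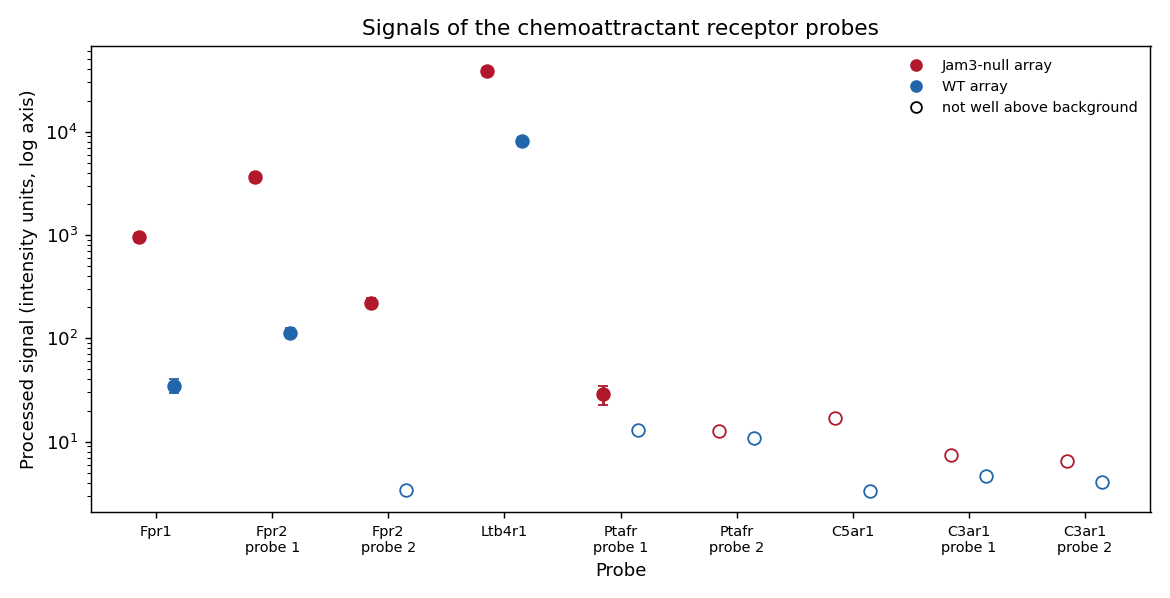
Processed signal (intensity units, log axis) of the 9 probes on the Jam3-null array (red, left of each pair) and the WT array (blue); bars are the error-model error, and open circles are not well above background and carry no bar. Red lies above blue for all 9 probes. The Ptafr, C5ar1 and C3ar1 probes all lie under 30 units, mostly as open circles, and pairs of open circles give no measured difference.

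Set against all genes, these 3 differences were in the upper tail. The 3 measured receptor genes were all past 2-fold in the higher direction and 0 in the lower one, against 10.3% and 8.59% of the 14361 genes that both arrays measured. A higher signal by any amount was found for 44.8% of those genes. The median of all genes was -0.07. Ranked from the highest difference down, Fpr2 was number 31, Fpr1 number 40 and Ltb4r1 number 349. Among 2946 genes seen on 1 array only, 473 (16.1%) had a bound of at least 2-fold higher on the Jam3-null array. Only the 488 genes seen on the Jam3-null array alone could have such a bound, so nearly all of those passed. The lower detection limit of the WT array favours such bounds. Ptafr, at 1.998-fold, was not among the 473. With 3 genes measured, these shares describe the arrays and carry no test.

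**Figure D2:**
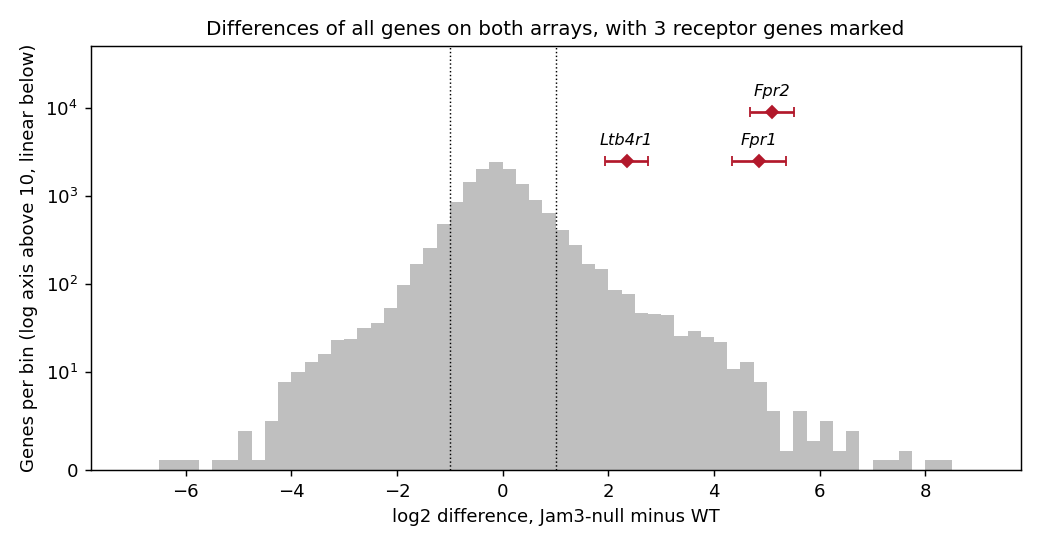
Number of genes (log axis above 10, linear below) by log2 difference, Jam3-null minus WT, in bins of 0.25, for 14361 genes; diamonds mark Ltb4r1, Fpr1 and Fpr2 at 2.34, 4.86 and 5.09 with 95% intervals of measurement error, and their height has no meaning. Dotted lines mark 2-fold, and all 3 genes lie to the right of them.

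The direction held for Fpr1, Fpr2 and Ltb4r1 in every alternative that measured them. Fpr2 ranged from 4.40 to 5.17 and Fpr1 from 3.36 to 4.93, the lowest value coming from normexp correction for both. Ptafr's bound ranged from 0.34 to 1.14 on the log2 scale.

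**Figure D3:**
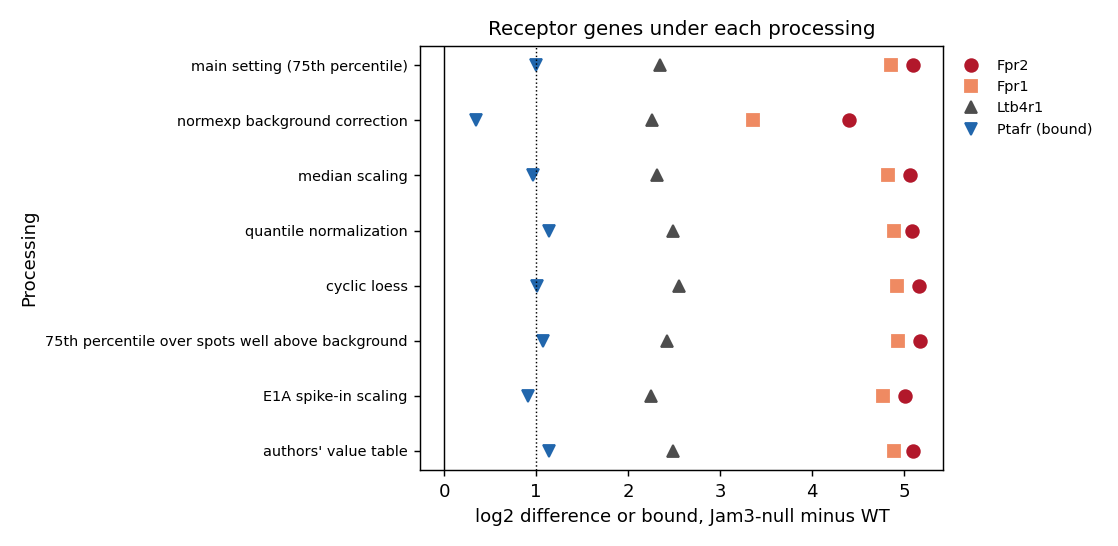
Log2 difference of Fpr2, Fpr1 and Ltb4r1 and bound of Ptafr, Jam3-null minus WT, under the main processing and 7 alternatives of background correction, scaling or source of values; the dotted line is 2-fold. The largest shift of Fpr1 and Fpr2 is to the left, after normexp correction, and Ptafr sits near the 2-fold line elsewhere.

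Neutrophil markers were higher together with the receptors, while markers of other cell types differed in direction from list to list. All 11 neutrophil markers read by the array, a list that includes the receptor gene Cxcr2 and the Fpr2 ligand gene Camp, were at least 2-fold higher, with a median of 3.30 and a range of 1.56 to 5.64. Their summed processed signal was 1015464 in Jam3-null cells and 177657 in WT cells. The largest parts came from S100a9 and S100a8, named after their values were seen. These gave 372787 and 273634 of the sum in Jam3-null cells, and 122927 and 37617 in WT cells. No marker read was at background, and Ly6g was not read under that name. Of 9 measured monocyte and macrophage markers, 4 passed 2-fold upward and 2 downward (median 0.66, range -2.45 to 3.01). Their summed signal was 28205 in Jam3-null cells and 78424 in WT cells, and Mrc1, named after its value was seen, was at background in both. A single gene, Ly86, gave 10141 of this sum in Jam3-null cells and 59304 in WT cells, and 5 of the 9 markers were higher by any amount. Mast cell, basophil and eosinophil markers were mostly lower, with 6 of 7 at least 2-fold lower and 1 higher, and a summed signal of 7279 in Jam3-null cells and 34994 in WT cells. Csf1r, the receptor of the macrophage growth factor, was at 1.88. Of the other monocyte and macrophage markers, named after their values were seen, Cd14 was at 3.01, Irf8 at -1.34 and Ly86 at -2.45. Among dendritic cell markers 3 of 6 were at least 2-fold lower and 0 higher, among stromal and endothelial markers 3 of 4 and 0, and among B cell markers 1 of 3 and 0. T and NK cell markers had 1 of 4 higher and 1 lower, erythroid markers 1 of 2 higher, and megakaryocyte and platelet markers 2 of 3 higher. Some counts shrank after normexp correction, through genes named after their values were seen. Epx, an eosinophil gene, moved from -1.24 to -0.97, and the dendritic cell gene Itgax from -1.19 to -0.65. Cxcl12 of the stromal list moved from -1.08 to -0.53, and the T cell gene Lck from -1.03 to -0.52. All of these ended under 2-fold, while the other marker genes past it stayed past it. Of all genes compared, 10.3% lay past 2-fold upward and 8.59% downward. Apart from the dendritic cell list, each list from the dendritic cell markers on had 4 or fewer genes measured in both groups. Genes detected in a single group are not in the counts. Of those, 5 are given here, all named after their values were seen. The megakaryocyte genes Pf4 and Itga2b, undetected in Jam3-null cells, were at least 2.24-fold and 3.75-fold lower there. The T and NK cell genes Cd3d and Klrb1c and the erythroid gene Alas2 were undetected in WT cells. They were at least 4.93-fold, 3.68-fold and 9.40-fold higher in Jam3-null cells. After normexp correction the log2 bound of Alas2 was 1.67, and the others fell under 2-fold. The part of all these cell types in the receptor signals was not tested. In RNA of a whole sort, more cells of a type and more RNA per cell cannot be told apart. The sort genes themselves were seen on both arrays: Kit, the c-Kit gene, had mean signals of 1237 in Jam3-null cells and 1244 in WT cells, and Itgam, a chain of Mac-1, was 13.1-fold higher. Neither Jam3 probe was well above background on either array. Their signals were 28.1 and 5.40 in Jam3-null cells, against 5.09 and 3.23 in WT cells, so the dim values were not lower in the group labelled Jam3-null, and the targeted gene gave no support for the labels. Both arrays lay on 1 slide and in 1 scan, and the scanner software rated 55.0% of spots well above background for Jam3-null cells and 61.8% for WT cells.

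Of 20 other chemoattractant receptors listed, 10 were measured in both groups, 8 of them higher by any amount, against 44.8% of all genes. That count includes Ltb4r2, Ptgdr2 and Cxcr4, named after their values were seen, at 0.07, 0.06 and 0.12, all within their error-model SD. Each of them was negative in at least 1 alternative processing (lowest -0.02, -0.03 and -0.08). Cx3cr1, counted as lower at -0.06 and named in the same way, reached 0.01 in another. Past 2-fold were 4 upward and 1 downward (median 0.39), against 10.3% and 8.59% of all genes and their median of -0.07, which are also the background of each list below. C5ar2, the second C5a receptor, which does not couple to G proteins, was 7.48-fold higher, with signals of 4290.3 in Jam3-null cells and 613 in WT cells. Of the receptors that bind C5a, only this one was measured. Cxcr2, the neutrophil receptor of CXC chemokines, was 5.29-fold higher, and Ccrl2, which binds chemerin, 3.13-fold. Cysltr1, a receptor of cysteinyl leukotrienes, was 2.21-fold lower (log2 difference -1.14), but only -0.73 after normexp correction, which is under 2-fold. The remaining gene past 2-fold, named after its value was seen, was the chemerin receptor gene Cmklr1 at 1.02 (0.43 after normexp correction). Ltb4r2, the low-affinity leukotriene B4 receptor, also named after its value was seen, was at 0.07, with signals of 62.3 in Jam3-null cells and 63.6 in WT cells. Of the other formyl peptide receptor genes of mouse, also named after their values were seen, Fpr-rs3 and Fpr-rs4 were at background on both arrays.

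Of 14 listed genes of ligands and of enzymes that make them, 12 were measured in both groups, 9 past 2-fold upward and 0 downward (median 1.54), against 10.3% and 8.59% of all genes. C3, the source of C3a, was 77.0-fold higher, with mean signals of 158475 in Jam3-null cells and 2200.3 in WT cells. Camp, which encodes the cathelicidin, was 30.3-fold higher, and Saa3, a serum amyloid A gene, 11.8-fold higher (log2 difference 3.56, and 2.79 after normexp correction). The complement factor gene Cfb was 11.7-fold higher. Cfd, the protease that activates factor B, was detected in Jam3-null cells alone and was at least 25.5-fold higher (log2 bound 4.67, and 2.59 after normexp correction). Hc, which encodes C5 and was named after its value was seen, was at background on both arrays.

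The enzymes that make leukotriene B4, named after their values were seen, were among the 9. Alox5, the 5-lipoxygenase gene, was at 1.47 with all 3 of its probes higher, its helper Alox5ap at 1.36 and the leukotriene A4 hydrolase gene Lta4h at 1.82. The annexin A1 gene Anxa1, chosen in the same way, was at 1.61. The same choice included 3 genes with small differences. Pla2g4a, the phospholipase that releases arachidonic acid, was at 0.17, and the acyltransferase genes of platelet-activating factor, Lpcat1 and Lpcat2, were at 0.04 and -0.03. Those 3 values lie within the error-model SD of 0.20 to 0.21.

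Enzymes that break the ligands down went both ways. Of 9 listed, 7 were measured in both groups, 2 past 2-fold upward and 1 downward (median 0.27). Pla2g7, the secreted platelet-activating factor acetylhydrolase, was 6.24-fold higher (log2 difference 2.64, and 1.81 after normexp correction). Cyp4f18, which oxidises leukotriene B4 in mouse neutrophils, was 2.33-fold higher. Pafah1b3, a catalytic subunit of the intracellular acetylhydrolase, was at -1.10, and Pafah2 at 0.66.

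Downstream of the receptors, values differed widely from gene to gene. All 22 signalling genes were measured in both groups, 6 past 2-fold upward and 0 downward (median 0.56). Fgr, a Src family kinase gene, was 50.1-fold higher (log2 difference 5.65, and 4.57 after normexp correction). Pik3r5, the p101 regulatory subunit of phosphoinositide 3-kinase gamma, was 13.0-fold higher (log2 difference 3.70, and 3.01 after normexp correction), and phospholipase Plcb2 was 3.52-fold higher with 3 of 3 probes. The catalytic subunit gene Pik3cg and the G protein gene Gnai2, named after their values were seen, were at -0.13 and 0.73.

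Genes that switch the receptors off were also higher in part. Of 11 measured kinases, arrestins and RGS genes, 5 passed 2-fold upward and 0 downward (median 0.81). The receptor kinase genes Grk3 and Grk5 were at 1.90 and 1.79 (Grk5 at 1.001 after normexp correction), and the arrestin genes Arrb1 and Arrb2 at 1.33 and 1.25. The 20 actin and motility genes lay closer to 0, with 1 past 2-fold upward and 1 downward (median 0.25). Pak1, a kinase activated by Rac, was at 1.13, and Limk1, which phosphorylates cofilin, at -1.12 (-0.97 with cyclic loess, under 2-fold). The formin gene Fmnl1 was at 0.86 and the small GTPase gene Rhog at 0.76.

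**Figure D4:**
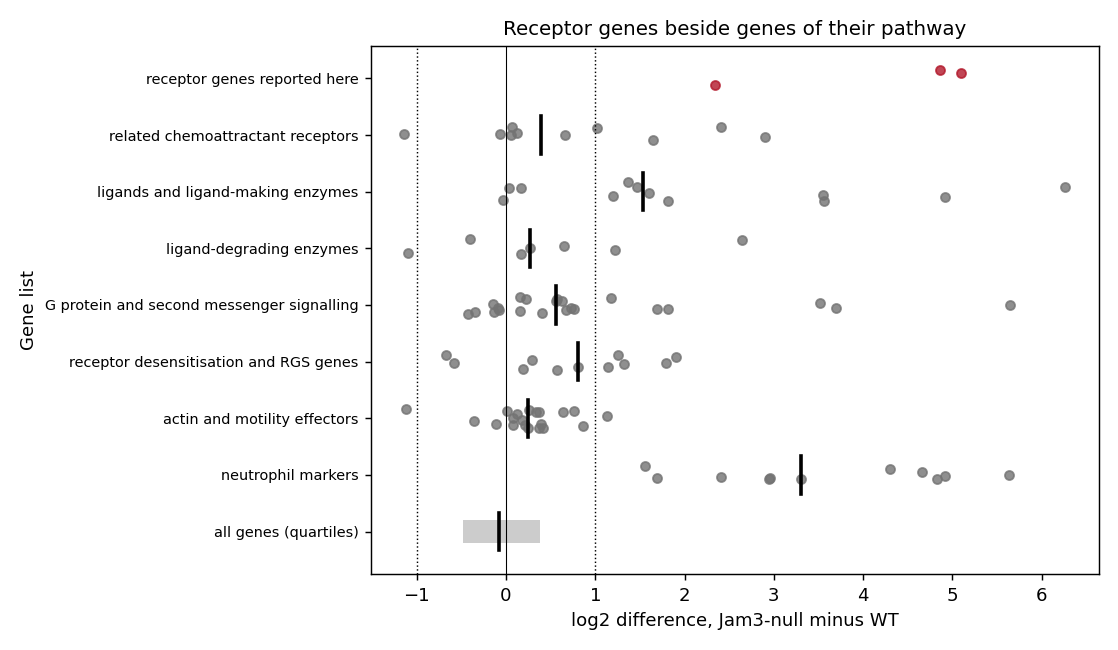
Log2 difference, Jam3-null minus WT, of the 3 receptor genes measured on both arrays (red), of genes in 6 pathway lists and of neutrophil markers (grey points, black bars at the medians), and the quartiles and median of all genes; dotted lines mark 2-fold. Medians run from 0.25 for actin and motility genes to 1.54 for ligand genes and 3.30 for neutrophil markers.

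The promoters of the 3 measured receptor genes are shown because these genes were higher together. All 6 genes had an entry in RefSeq's table (GRCm38.p6), with 250 bases before and 50 from the start site on. Capitals mark matches, on either strand, to short patterns known from sites of the myeloid factors PU.1, C/EBP, RUNX and STAT and to the TATA box, spelled out below. No marked matches overlap. The windows are chr17:17883890-17884189 on the minus strand for Fpr1, chr17:17887574-17887873 on the plus strand for Fpr2 and chr14:55765712-55766011 on the plus strand for Ltb4r1.
Fpr1: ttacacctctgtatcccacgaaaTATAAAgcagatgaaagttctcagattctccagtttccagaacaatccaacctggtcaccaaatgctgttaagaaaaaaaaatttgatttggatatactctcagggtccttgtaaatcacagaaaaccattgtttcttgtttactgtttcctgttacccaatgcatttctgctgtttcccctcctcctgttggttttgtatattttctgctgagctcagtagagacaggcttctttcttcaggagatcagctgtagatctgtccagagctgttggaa
Fpr2: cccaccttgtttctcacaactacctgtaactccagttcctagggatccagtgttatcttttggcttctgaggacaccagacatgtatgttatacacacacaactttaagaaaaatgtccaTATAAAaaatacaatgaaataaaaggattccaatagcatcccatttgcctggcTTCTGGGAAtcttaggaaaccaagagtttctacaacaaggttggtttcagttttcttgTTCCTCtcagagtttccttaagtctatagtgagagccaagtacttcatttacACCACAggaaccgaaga
Ltb4r1: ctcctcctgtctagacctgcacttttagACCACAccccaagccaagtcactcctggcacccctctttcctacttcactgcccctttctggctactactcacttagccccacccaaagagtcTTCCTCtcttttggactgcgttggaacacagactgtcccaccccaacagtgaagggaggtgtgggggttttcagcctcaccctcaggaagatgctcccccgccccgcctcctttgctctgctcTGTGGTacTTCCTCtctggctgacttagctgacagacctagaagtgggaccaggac
The core letters of PU.1 sites, GAGGAA, were in the windows of Fpr2, Ltb4r1 and Ptafr, 3 of 6 genes, against 28.3% of all 32851 promoter windows. In Ltb4r1 they lay from -129 to -124 and from 2 to 7, with the start site counted as 0. The latter match was beside a RUNX match from -6 to -1, and another RUNX match ran from -222 to -217. The RUNX letters TGTGGT were in 3 of 6 windows (Fpr2, Ltb4r1 and C5ar1), against 16.8% of all. The STAT letters TTCNNNGAA, where N is any base, were in Fpr2 alone of the 6, against 8.3% of all. A loose NF-kB pattern, given by name only and found in 50.8% of all windows, was in C3ar1 alone. The C/EBP letters TTGCNNAA were in 0 of 6 windows, against 10.8% of all. The TATA box letters TATAAA were in Fpr1, Fpr2 and C3ar1 (13.6% of all), starting at -227, -130 and -235, far from the start site. A match describes letters and not a bound site, and a window without one says nothing of the factor.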

How the data were processed

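Total RNA of the sorted cells was labelled with Cy3, per the labels' protocols. The authors deposited spot intensities from Feature Extraction, Agilent's scanner software, in version 10.7.3.1 per the file headers (10.7 per the submitters' processing notes): background-subtracted and detrended within each array, with surrogate values for dim spots and no normalization between arrays. The deposited value table holds log2 values with near-identical sorted columns. How they were normalized is not stated per the labels, and they served as an alternative.

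Outlier-flagged spots were left out (151 on the Jam3-null array, 163 on the WT array). The log2 processed signal minus the 75th percentile of 43379 non-control spots was averaged per probe. A gene took its probe with the highest mean signal. Genes whose probe passed the software's well-above-background test on both arrays were compared. A gene seen on 1 array had a bound against the dimmest probe passing that test on the other, or its own signal there if higher. Symbols came from accessions matched to RefSeq (27660 probes) or a unique older symbol (471). The median error-model SD of a difference was 0.20, and 127 probes in repeat spots gave 0.087.

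With 1 array a group no test was made. The rule for named genes took the 6 receptor genes and the 4 largest absolute differences of each pathway list. It also took pathway list genes with a bound of at least 2-fold, and Kit, Itgam, Ly6g and Csf1r. Other list genes are marked in the text as named after their values were seen. One gene that this rule names is not reported here. With 2 arrays every gene has 1 difference, so no genes of like pattern were named. The receptor genes, lists and alternatives were chosen with earlier results of these data known. The gene-level step was tested on simulated data. R 4.3.3 with limma 3.58.1 and Python 3.11.15 were used.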

Additional observations from a re-analysis of the deposited data

How the results depend on the processing

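All 11 alternatives of processing, and fold thresholds of 1.5 and 3, kept Fpr1, Fpr2 and Ltb4r1 higher on the Jam3-null array wherever they were measured. Without a filter on dim probes 5 of 6 receptor genes passed 2-fold, on values that include surrogates, and with brighter genes only Ltb4r1 was left (1 of 1). Counts of all genes at least 2-fold higher and lower were 2828 and 2920 without the filter, 521 and 567 with brighter genes, 2647 and 2917 at 1.5-fold, and 709 and 421 at 3-fold. Without the filter and with brighter genes, lower genes outnumbered higher ones, unlike in the main setting (1473 higher and 1234 lower), as they also did with spike-in scaling and at 1.5-fold. The cause was not tested. The median of related receptors was 0.66 without the filter (17 genes) and 1.51 with brighter genes (2 genes), and with cyclic loess the medians of ligand-degrading and of actin genes were 0.48 and 0.47. Cyclic loess moved the median of all genes by 0.13, and leaving out the filter by 0.22. The share of higher among genes past 2-fold ran from 46.6% with spike-in scaling to 64.1% with cyclic loess, against 54.4% in the main setting. Brightness over background limits Fpr1, Ptafr, C5ar1 and C3ar1 most. No paired analysis was possible because each group has 1 array.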

Other observations

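Genes beside the receptor genes were looked up in RefSeq's gene order, 3 protein-coding genes on each side, a choice made after the data were examined. Of 30 such neighbours, 18 were measured in both groups, 4 past 2-fold upward and 0 downward (median 0.14), against 10.3% higher and 8.59% lower of all genes compared. The 4 were C5ar2, next to C5ar1, at 2.90, Cideb, a lipid droplet gene close to Ltb4r1, at 2.08, and the lectin receptor gene Clec4a3 and the glucose transporter gene Slc2a3, both near C3ar1, at 3.70 and 1.41. Clec4a3 and Cideb had error-model SDs of 0.30 and 0.23, above the median of 0.20 over all genes compared. The values of these neighbours are those of the main setting, without normexp correction. Fpr1 and Fpr2 are direct neighbours of each other. Has1 and Spaca6 on the other side of Fpr1, and Fpr-rs4 beyond Fpr2, were well above background on neither array.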
